A study of Homo sapiens with 36 samples.

Results

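RNA of LoVo cells treated with 10 nM of a MEK inhibitor was compared with RNA of LoVo cells treated with the solvent DMSO. The comparison takes the 3 libraries labelled 10 nM and all 6 DMSO libraries, 9 of the 36 libraries of the series, and all 20802 genes of the count table apart from its 10 spike-in rows, which held no counts. LoVo is an established human colorectal cancer line, grown here in F-12K medium with serum, and both groups were treated for 24 hours. The DMSO libraries carry the labels chip 1 and chip 2, with 3 libraries each, and the chip of the treated libraries is not labelled. The other libraries hold 9 further doses between 0.03 and 1000 nM, of which the 3, 30 and 1000 nM groups, with 3 libraries each, are used below to place the 10 nM dose. The inhibitor is given in the labels only as a numbered compound of a publication. All cells come from 1 line, so the libraries do not sample different tumours, and the labels do not say how the replicate cultures were separated.

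MEK is a pair of kinases, encoded by MAP2K1 and MAP2K2, that phosphorylate and activate the ERK kinases downstream of RAS and RAF. Active ERK switches on early genes such as EGR1, FOSL1 and MYC, and it also switches on its own brakes, among them phosphatases of the DUSP family and Sprouty proteins. In many colorectal cancer cells, this pathway is known to run without a growth factor signal.

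Total counts of the 9 libraries lay between 2972186 and 4072743. Counts were scaled to library size with TMM factors and are given as CPM, the count of a gene relative to the scaled library total. Since the amplicon of each gene amplifies with its own efficiency, CPM values are compared between libraries and not between genes. EPCAM, KRT8, KRT18 and CDX2, which mark colorectal epithelium, had counts in every library. The 3 libraries at 10 nM differed among themselves by more than counting noise, with a chi-square of 1.55 to 3.22 per degree of freedom between any pair, against 13.4 to 17.2 between a DMSO library and one at 10 nM. DMSO libraries with the same number moved together across the chips, and DMSO means and SDs are taken over 3 pair means.

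At 10 nM, 3249 of 12102 tested genes (26.8%) passed the test against the DMSO libraries of each chip (edgeR's quasi-likelihood test, Benjamini-Hochberg adjusted p below 0.05). Higher were 1634 (13.5% of tested genes) and lower 1615 (13.3%). A change of at least 2-fold was found for 403 genes called higher (3.33%) and 397 called lower (3.28%). The median log2 fold change over all tested genes was 0.0119. All 3 libraries at 10 nM lay above all 6 DMSO libraries for 2384 genes (19.7%) and below them for 2439 (20.2%). These shares are the background for every gene group described next. Genes given with 3 treated values were mostly chosen by a rule of size or of adjusted p within each list, and other members were named after their values were seen. Nothing in the labels says that replicates came from separate cultures, so the tests measure only how these libraries vary, which may be technical.

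**Figure D1:**
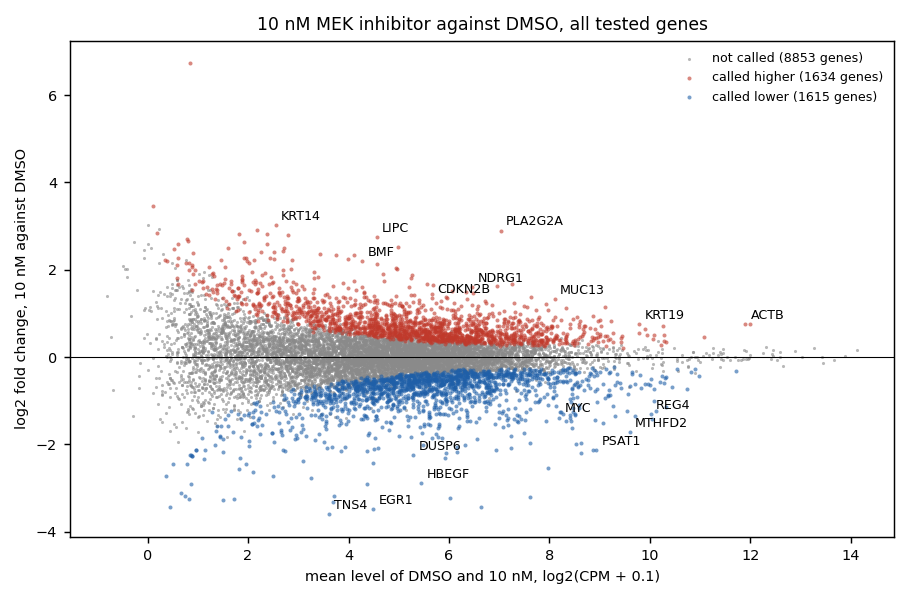
Log2 fold change at 10 nM against DMSO (y axis) by mean level of both groups (x axis, log2 of CPM + 0.1) for the 12102 tested genes, each a point. Red marks the 1634 genes called higher and blue the 1615 called lower, and the labelled genes are described in the text.

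Genes whose level is known to follow ERK activity fell at 10 nM. Of the 10 members of the MAPK activity list, 8 fell and none rose, and the median log2 fold change of the list was -1.20. DUSP6, a phosphatase that inactivates ERK, lay between 58.4 and 69.4 CPM (median 63.6) in the 6 DMSO libraries and at 16.3, 10.9 and 13.3 CPM in the libraries at 10 nM. The groups did not overlap, and the log2 fold change was -2.25 (SE 0.14, adjusted p = 3.9e-18). ETV4, an ETS transcription factor, lay between 54.4 and 74.2 CPM (median 64.9) in DMSO and at 20.1, 22.2 and 21.5 CPM at 10 nM, a log2 fold change of -1.60 (SE 0.16, adjusted p = 2.4e-11). Its relative ETV5 lay between 64.6 and 80.3 CPM (median 71.5) in DMSO and at 16.0, 11.7 and 25.8 CPM at 10 nM, with the third library the highest of the treated ones (-2.01, SE 0.20). SPRY2, a Sprouty protein gene, fell by 1.37 on the log2 scale (SE 0.14), and SPRY4, with no count in 1 of the 3 libraries at 10 nM, had a log2 fold change of -3.11 (SE 0.78). DUSP4, another ERK phosphatase, fell from 121 ± 8.46 CPM (SD over 3 DMSO pairs) to 59.2 ± 6.11 CPM (SD over 3 libraries). The receptor EPHA2 fell from a median of 446 CPM to 236, 231 and 225 CPM, and PHLDA1 from 439 ± 18.6 to 263 ± 36.9 CPM, each with 3 treated libraries below all DMSO libraries.

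A pair of the list's members did not pass the test. CCND1, the cyclin that starts the cell cycle, was at 289, 300 and 280 CPM at 10 nM, within the DMSO range of 265 to 302 CPM, a log2 fold change of 0.03 (SE 0.10, adjusted p = 0.969). EPHA4, at about 5 CPM in both groups, was at -0.04 (SE 0.35), and its sign turned under 5 of the alternatives given at the end.

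**Figure D2:**
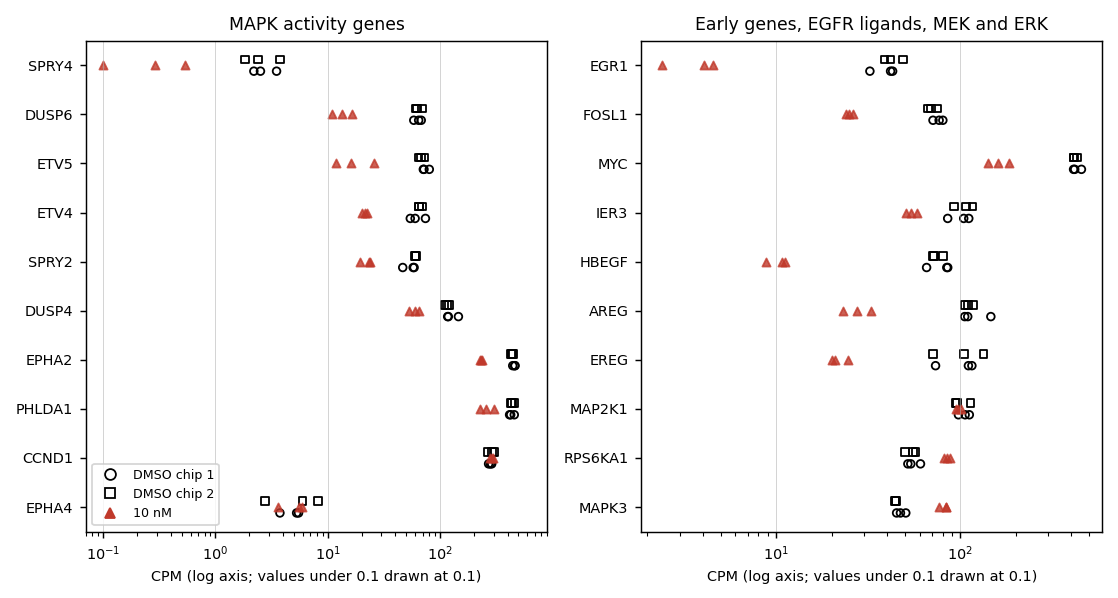
Level of 20 genes in each library (x axis, CPM on a log axis, with values under 0.1 drawn at 0.1), for 3 DMSO libraries of chip 1 (circles), 3 of chip 2 (squares) and 3 at 10 nM (triangles). The triangles lie left of all open symbols for DUSP6, ETV4, MYC and HBEGF, among the open symbols for CCND1, EPHA4 and MAP2K1, and right of them for MAPK3.

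The wider set of ERK brakes was more mixed. Of 13 tested DUSP, SPRED and Sprouty relatives outside the MAPK activity list, 3 fell (23.1%) and none rose. Of all tested genes, 13.3% fell and 26.8% were called either way. SPRED1, a brake of RAS to ERK signalling, fell from 50.2 ± 3.34 to 26.5 ± 4.65 CPM. Its relative SPRED2 fell from 79.1 ± 3.44 to 51.5 ± 0.904 CPM, and DUSP5 fell from 46.6 ± 2.38 to 29.4 ± 3.37 CPM. DUSP9 (-1.004) and DUSP2 (-0.62) did not pass the test, nor did DUSP7 (-0.01).

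Early genes of growth factor signalling fell in 8 of 14 tested members of their list, with none higher and a median of -0.47. EGR1, a zinc finger transcription factor, lay between 32.3 and 48.7 CPM (median 41.7) in DMSO and at 4.07, 2.40 and 4.55 CPM at 10 nM. Its log2 fold change of -3.48 (SE 0.23, adjusted p = 4.32e-17) was the second largest fall among the genes named by size. FOSL1, which pairs with JUN proteins in AP-1, lay between 66.7 and 80.3 CPM (median 72.9) in DMSO and at 24.7, 24.0 and 26.1 CPM at 10 nM (-1.55, SE 0.14). MYC, which drives ribosome production and growth, lay between 411 and 454 CPM (median 416) in DMSO and at 183, 160 and 142 CPM at 10 nM, a log2 fold change of -1.39 (SE 0.09, adjusted p = 1.42e-16). None of these 3 genes overlapped between the groups. FOS, KLF10, IER3, JUNB and KLF6 fell as well, by 0.38 to 1.13 on the log2 scale, the calls of JUNB and KLF6 being lost without single libraries (largest adjusted p 0.0844 and 0.117), while FOSL2 (0.06), JUND (0.27) and SRF (-0.04) did not pass the test.

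Ligands of the EGF receptor fell at 10 nM. HBEGF lay between 65.5 and 85.3 CPM (median 76.4) in DMSO and at 10.8, 11.2 and 8.80 CPM at 10 nM, a log2 fold change of -2.89 (SE 0.19, adjusted p = 8.06e-17). AREG went from a DMSO median of 110 CPM to 32.6, 27.5 and 23.0 CPM (-2.06, SE 0.16) and EREG from a median of 108 CPM to 20.1, 24.6 and 20.9 CPM (-2.21, SE 0.29). BTC (-0.47) and TGFA (-0.03), 2 further ligands, did not pass. Of the receptors, ERBB2 rose by 0.46, while EGFR (-0.25) and ERBB3 (0.10) did not pass. LRIG1, which is known to lower ERBB receptor levels, rose from 6.52 ± 1.86 to 15.9 ± 4.70 CPM, a log2 fold change of 1.27 (SE 0.27). Over the 11 tested members of this list, 5 fell and 2 rose.

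Among the genes of the RAS to ERK chain itself, 2 rose and 1 fell of 21 tested, 14.3% and below the background share. MAP2K1 and MAP2K2, the genes of the targeted kinases, were at -0.08 (SE 0.09) and 0.07 (SE 0.10), with overlapping groups, and BRAF was at -0.01 (SE 0.11), with overlapping groups as well. MAPK3, which encodes ERK1, rose: it lay between 44.2 and 50.5 CPM (median 44.8) in DMSO and at 83.5, 83.0 and 76.7 CPM at 10 nM (0.82, SE 0.11, adjusted p = 1.2e-07). RPS6KA1, a kinase that ERK activates, rose by 0.63 (SE 0.12), and PTPN11, a phosphatase that relays receptor signals to RAS, fell by 0.44 (SE 0.11). Of 13 tested ETS transcription factors outside the MAPK activity list, ETS2 (1.08, SE 0.10), EHF (0.88, SE 0.10) and ELK3 (0.51, SE 0.14) rose and none fell. That is 23.1%, where 13.5% of all tested genes rose. ETV4 and ETV5, which are in the MAPK activity list, fell as given above. The call of ELK3 was lost without either of 2 libraries (largest adjusted p 0.0968).

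Receptor kinases and insulin signalling genes moved both ways, with 4 of 21 higher and 4 lower. IRS1, an adaptor of the insulin receptor, lay between 73.3 and 85.6 CPM in DMSO and at 36.4, 34.7 and 41.2 CPM at 10 nM (-1.06, SE 0.13), and the HGF receptor gene MET fell from a median of 223 CPM to 140, 136 and 126 CPM (-0.75, SE 0.16). FOXO1 (-0.54) and IRS2 (-0.41) fell as well, the call of IRS2 being lost on leaving out each of 5 single libraries (largest adjusted p 0.115). EPHA1 (0.55), PIK3R1 (0.53), AKT1 (0.38) and INSR (0.32) rose.

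The deepest fall of a list as a whole was seen for genes switched on by ATF4, a transcription factor of the response to amino acid shortage and other stresses. Of 15 tested members, 14 fell and none rose, with a median of -1.84. DDIT4, an inhibitor of the growth kinase mTORC1, lay between 697 and 812 CPM (median 769) in DMSO and at 189, 169 and 161 CPM at 10 nM, a log2 fold change of -2.14 (SE 0.12, adjusted p = 1.02e-19). ASNS, which makes asparagine, lay between 223 and 273 CPM (median 242) in DMSO and at 54.4, 63.5 and 54.3 CPM at 10 nM (-2.08, SE 0.11, adjusted p = 1.81e-20). TRIB3, a pseudokinase, fell from a median of 625 CPM to 163, 152 and 169 CPM (-1.96, SE 0.11), and the secreted STC2 from 98.9 to 17.5, 20.3 and 22.7 CPM (-2.31, SE 0.13). No library at 10 nM reached the lowest DMSO library for any of these 4 genes. CEBPB (-2.77, SE 0.43) and CEBPG (-1.74, SE 0.24), partners of ATF4 on DNA, fell as well. ATF4 itself went from a median of 964 CPM to 599, 624 and 581 CPM (-0.67, SE 0.10), and ATF5 was not called (0.02).

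Enzymes and carriers that supply amino acids fell beside them. The serine pathway runs from PHGDH over PSAT1 to PSPH. PSAT1 lay between 763 and 830 CPM (median 792) in DMSO and at 180, 179 and 183 CPM at 10 nM, a log2 fold change of -2.14 (SE 0.10, adjusted p = 2.72e-22). PSPH fell by 1.37 (SE 0.13) and PHGDH by 0.89 (SE 0.10). The mitochondrial folate enzymes MTHFD2 (-1.72, SE 0.08) and SHMT2 (-1.16, SE 0.10) fell, while the cytosolic SHMT1 (0.03) and MTHFD1 (-0.15) did not pass. In that list of 11 tested genes, 6 fell and 1 rose. Of 16 amino acid transporters, 11 fell and 2 rose. The cystine carrier SLC7A11 went from a median of 203 CPM to 46.5, 49.1 and 40.6 CPM (-2.14, SE 0.11), and the glutamine carriers SLC1A5 and SLC38A2 changed by -1.46 (SE 0.10) and -1.26 (SE 0.09). SLC7A7 (1.20) and SLC1A1 (0.83) rose. Of 20 aminoacyl-tRNA synthetases, which load tRNAs with amino acids, 17 fell and none rose, with a median of -0.89, and GARS changed by -1.30 (SE 0.10). QARS (0.06), FARSA (-0.21) and KARS (-0.29) were the members not called.

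The promoter of ASNS is shown because it holds the composite element that ATF4 binds together with C/EBP proteins, searched here as TGATGNAA on both strands. Promoters were matched by symbol to RefSeq (GRCh38.p14) for 9607 of the 12102 tested genes, as windows from 250 bases before to 50 after the start, and the 250 bases before the start are printed with matches in capitals. The ASNS stretch lies on the minus strand at chr7:97872409-97872658, and its match begins 68 bases before the start. 2 of the 13 list members with a promoter held the element, against 1.67% of tested genes and 3.67% of all 27305 promoters of the same length.
ASNS: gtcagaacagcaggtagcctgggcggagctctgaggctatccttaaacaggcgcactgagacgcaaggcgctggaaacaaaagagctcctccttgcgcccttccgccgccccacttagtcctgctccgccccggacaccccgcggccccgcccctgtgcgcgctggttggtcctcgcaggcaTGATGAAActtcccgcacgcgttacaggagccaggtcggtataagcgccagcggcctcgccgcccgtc

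Ribosome production genes fell almost throughout, from the RNA polymerase I subunits to the factors that fold and cut ribosomal RNA. Of 46 tested members, 41 fell and none rose, with a median of -0.76. DDX21, an RNA helicase, lay between 163 and 197 CPM (median 174) in DMSO and at 59.0, 70.7 and 54.9 CPM at 10 nM (-1.53, SE 0.11, adjusted p = 9.73e-15). LYAR, a nucleolar growth regulator, went from a median of 126 CPM to 48.9, 38.7 and 48.8 CPM (-1.47, SE 0.12), and RRP12, which acts in subunit export, from 113 to 49.7, 49.9 and 47.3 CPM (-1.21, SE 0.11). NOP2 (-1.42), NAT10 (-1.0015), NOP56 (-0.91) and POLR1B (-0.82) fell, and NPM1, an abundant nucleolar protein, fell by 0.33 (SE 0.08).

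The proteins of the cytosolic ribosome did not share this. Of 43 tested, 5 fell (11.6%) and none rose, where 13.3% of all tested genes fell, and the list median was -0.03. RPS14 went from a median of 119 CPM to 44.2, 49.1 and 37.0 CPM (-1.46, SE 0.14), and RPL9 from 110 to 84.4, 81.7 and 84.9 CPM (-0.38, SE 0.10). RPL8, RPL14 and RPS7 were the others. The calls of RPL8 and RPL14 were lost when single libraries were left out (largest adjusted p 0.0801 and 0.0784), and amplicons of ribosomal protein genes can share reads with pseudogenes, so single members are uncertain. RPL11 was at 0.23 (SE 0.09) and did not pass, but did under 4 alternatives (smallest adjusted p 0.00231). Of 32 mitochondrial ribosomal protein genes, 13 fell and 1 rose, with a median of -0.32, MRPL12 among them at -0.80 (SE 0.10). Purine, pyrimidine and polyamine enzymes fell in 15 of 24 members with none higher. GART (-1.25, SE 0.17) and PFAS (-1.16, SE 0.13) of purine synthesis fell, as did the spermidine synthase SRM (-1.02, SE 0.11) and ODC1, the entry enzyme of polyamine synthesis (-0.55, SE 0.08).

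NAT10, an RNA acetyltransferase of the nucleolus, has a promoter with the E-box CACGTG, the element bound by MYC with MAX, and is printed as the list's member chosen by smallest adjusted p among those that hold it. The stretch lies on the plus strand at chr11:34105379-34105628, with the match, in capitals, 15 bases before the start. 10 of the 37 list members with a promoter (27.0%) held CACGTG, against 10.4% of tested genes, 14.6% of genes called lower, 7.81% of genes called higher and 7.43% of all promoters. These shares describe letters in a window and say nothing of binding. Of the other elements searched on both strands, the ETS core CCGGAAG was in 0 of 6 MAPK activity genes with a promoter, against 19.6% of tested genes and 10.7% of all promoters, and the AP-1 element TGANTCA in 1 of 10 early genes (10.0%), against 4.4% and 7.76%.
NAT10: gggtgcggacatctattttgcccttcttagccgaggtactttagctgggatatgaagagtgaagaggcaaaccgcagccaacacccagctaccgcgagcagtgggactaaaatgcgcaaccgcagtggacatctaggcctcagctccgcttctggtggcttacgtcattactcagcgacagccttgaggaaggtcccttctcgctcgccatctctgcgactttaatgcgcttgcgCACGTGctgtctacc

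**Figure D3:**
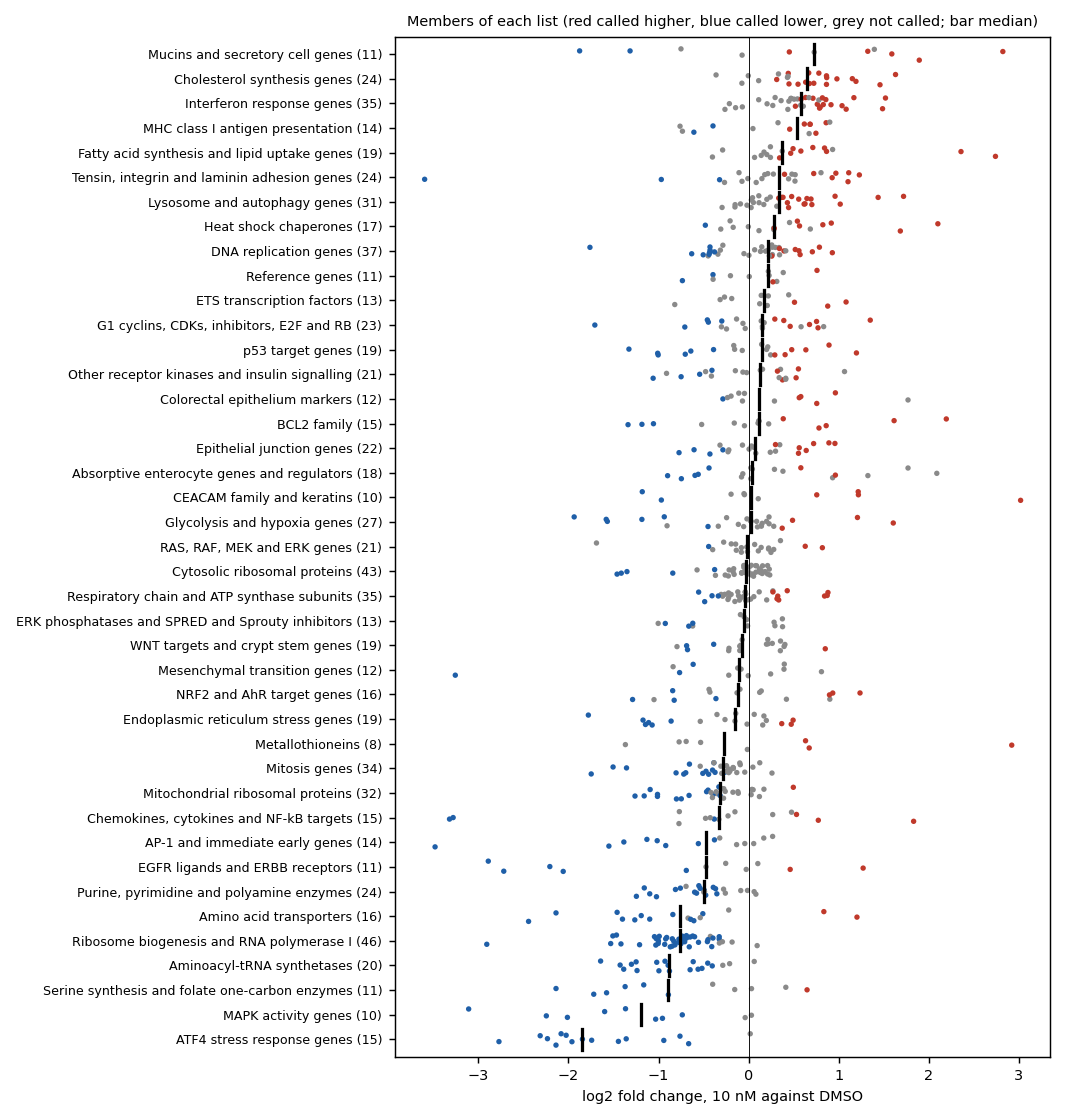
Log2 fold change at 10 nM against DMSO (x axis) of every tested member (points) of the lists with at least 8 tested members (rows, number tested in brackets), red called higher, blue called lower, grey not called, with the median as a bar. ATF4 stress response genes have the lowest median at -1.84, and mucin and cholesterol genes the highest at 0.73 and 0.65.

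The cell cycle groups did not move as one. Of 37 DNA replication genes, 9 rose and 8 fell at 10 nM, with a median of 0.22. PCNA, the sliding clamp of DNA polymerases, lay between 55.0 and 65.0 CPM (median 60.0) in DMSO and at 115, 127 and 97.0 CPM at 10 nM, a log2 fold change of 0.93 (SE 0.12, adjusted p = 1.28e-07). UNG (0.79, SE 0.11), GINS2 (0.71, SE 0.17), LIG1 (0.57, SE 0.11) and TYMS (0.52, SE 0.10) rose as well. The helicase subunits MCM3 (0.26, SE 0.09) and MCM4 (0.39, SE 0.12) rose by less, while MCM5 (0.34, SE 0.24) and MCM7 (0.13, SE 0.10) did not pass although their groups did not overlap, and MCM5 passed with only the compared libraries in the fit (adjusted p 0.00175). The clamp loader RFC5 fell from a median of 16.4 CPM to 3.20, 5.07 and 6.07 CPM (-1.76, SE 0.43), and the origin factors CDC6 and ORC6 changed by -0.50 and -0.43. Summed over the 37 genes, the libraries at 10 nM lay between 3386 and 3421 CPM, above the DMSO range of 2836 to 2952 CPM.

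Higher doses gave another picture for the same genes. At 30 nM the sums lay between 2592 and 2931 CPM, overlapping DMSO, and at 1000 nM between 1833 and 2182 CPM, below DMSO, while at 3 nM they lay between 3655 and 3772 CPM, above 10 nM. In 1000 nM against 10 nM, 29 of the 37 fell and none rose, with a median of -0.69, where 8.25% of all tested genes fell. MCM3 went from 258 CPM at 10 nM to 124 CPM at 1000 nM, MCM4 from 305 to 141 CPM and PCNA from 113 to 65.4 CPM. The comparisons with DMSO and with 1000 nM share the libraries at 10 nM.

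Regulators of the G1 phase rose in 7 of 23 tested members and fell in 5. CCND2, a D-type cyclin, lay between 243 and 263 CPM (median 251) in DMSO and at 443, 426 and 410 CPM at 10 nM (0.75, SE 0.14), and at 1000 nM its mean was 271 CPM. E2F1, a transcription factor of S phase genes, rose by 0.46 (SE 0.14), and CDK4 fell by 0.46 (SE 0.10). Among the CDK inhibitors, CDKN2B (p15) went from a median of 29.4 CPM to 79.1, 67.8 and 71.6 CPM (1.35, SE 0.14, adjusted p = 1.96e-10) and CDKN2C (p18) from 21.0 to 39.3, 37.1 and 36.4 CPM (0.77, SE 0.16). CDKN1A (p21) rose by 0.29 (SE 0.10) and CDKN1B (p27) fell by 0.45 (SE 0.11). Mitosis genes fell in 14 of 34 tested members with none higher and a median of -0.28. CDC25B, a phosphatase that activates CDK1, fell by 0.70 (SE 0.11), the kinesin KIF2C by 0.66 (SE 0.12) and PLK1 by 0.51, while TOP2A (-0.21) and CDK1 (-0.25) did not pass. The calls of CDKN1A, E2F1, MCM3, MCM4 and ORC6 were lost without single libraries (largest adjusted p 0.164, 0.0733, 0.142, 0.0716 and 0.0763).

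In the BCL2 family, 5 of 15 tested members rose and 3 fell. BMF, which promotes cell death and is held in check by ERK in many cells, lay between 5.33 and 8.59 CPM (median 6.98) in DMSO and at 36.4, 29.4 and 29.1 CPM at 10 nM, a log2 fold change of 2.19 (SE 0.19, adjusted p = 5.19e-13). BCL2L11 (BIM), of the same death-promoting class, went from a median of 17.4 CPM to 53.5, 58.2 and 54.0 CPM (1.61, SE 0.15, adjusted p = 4.61e-11). Neither gene's groups overlapped. BAD rose by 0.86 (SE 0.15), and the survival gene BCL2L1 rose by 0.38 (SE 0.11). PMAIP1 (NOXA), another death-promoting member, fell from a median of 70.8 CPM to 33.2, 33.1 and 28.2 CPM (-1.18, SE 0.13), and MCL1 (0.10) and BAX (-0.05) did not pass. Targets of p53 divided evenly, with 6 of 19 higher and 6 lower. SFN rose by 0.89 (SE 0.15), while GDF15 and TNFRSF10B fell by 0.70 (SE 0.12) and 0.64 (SE 0.11).

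Genes of cholesterol synthesis rose at 10 nM. Of 24 tested, 17 rose and none fell, with a median of 0.65. HMGCS1, an early enzyme of the pathway, lay between 56.3 and 67.8 CPM (median 59.9) in DMSO and at 171, 188 and 206 CPM at 10 nM, a log2 fold change of 1.63 (SE 0.13, adjusted p = 5.3e-13). INSIG1, a sterol sensor of the endoplasmic reticulum, went from a median of 47.5 CPM to 127, 147 and 118 CPM (1.46, SE 0.13). The groups did not overlap for either gene. FDFT1 (0.78, SE 0.10), of the first step specific to sterols, and the regulator SREBF2 (0.63, SE 0.10) rose as well, while SQLE (0.43) and CYP51A1 (0.33) did not pass. Summed over the 24 genes, libraries at 10 nM lay between 2435 and 2545 CPM and DMSO libraries between 1512 and 1559 CPM.

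SREBF2 is printed as the list's 1 member whose promoter held the sterol regulatory element core, searched as TCACNCCAC on both strands. Of 17 members with a promoter this was 5.88%, against 1.02% of tested genes and 1.15% of all promoters. The stretch lies on the plus strand at chr22:41832855-41833104, with the match in capitals 133 bases before the start.
SREBF2: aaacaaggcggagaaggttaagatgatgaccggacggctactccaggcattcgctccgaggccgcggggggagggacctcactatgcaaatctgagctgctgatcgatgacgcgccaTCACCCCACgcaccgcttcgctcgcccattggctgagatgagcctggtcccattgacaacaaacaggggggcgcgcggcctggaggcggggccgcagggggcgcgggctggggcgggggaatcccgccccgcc

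Fatty acid and lipid uptake genes rose in 9 of 19 tested members and fell in none. SCD, which makes monounsaturated fatty acids, went from a median of 214 CPM to 398, 371 and 394 CPM (0.84, SE 0.09). LIPC, hepatic lipase, lay between 3.99 and 8.56 CPM in DMSO and at 40.1, 35.2 and 47.0 CPM at 10 nM (2.74, SE 0.21), and the lipid receptor CD36 between 2.19 and 5.10 CPM in DMSO and at 19.5, 20.02 and 14.3 CPM at 10 nM (2.36, SE 0.24). FASN rose by 0.49, and ACACA (0.20) and SREBF1 (0.14) did not pass. Lysosome and autophagy genes rose in 16 of 31 tested members and fell in none, with a median of 0.33. NPC2, which carries cholesterol out of lysosomes, went from a median of 82.1 CPM to 186, 184 and 145 CPM (1.02, SE 0.12), and the protease CTSD from 317 to 534, 534 and 485 CPM (0.70, SE 0.10).

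Interferon response genes rose in 16 of 35 tested members, 45.7%, with none lower and a median of 0.58. IFITM3, a membrane protein that blocks virus entry, lay between 109 and 129 CPM (median 122) in DMSO. At 10 nM it lay at 225, 221 and 204 CPM (0.86, SE 0.10, adjusted p = 4.64e-09). The related IFITM1 lay between 109 and 135 CPM in DMSO and at 227, 221 and 197 CPM at 10 nM (0.79, SE 0.11). Amplicons of this pair may share reads. OAS3, an RNA sensor, rose by 0.79 (SE 0.11), BST2 by 0.71 (SE 0.11) and ISG15, a ubiquitin-like modifier, by 0.83 (SE 0.13). IFI6 went from a median of 30.7 CPM to 84.1, 93.4 and 118 CPM (1.52, SE 0.23), with a wide DMSO range of 21.4 to 56.6 CPM. Of the transcription factors, STAT2 (0.58) rose and IRF1 (0.20) did not pass. In 1000 nM against 10 nM, 17 of the 35 rose and none fell, where 6.48% of all genes rose. MHC class I genes moved both ways, with 6 of 14 higher and 2 lower. The peptide transporter subunit TAP1 (0.75, SE 0.12) and the proteasome subunit PSMB9 (0.86, SE 0.13) rose, while TAP2 (-0.61, SE 0.12) and B2M (-0.40, SE 0.11) fell.

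The promoter of IFITM3 is printed for its matches to the core of the interferon-stimulated response element, searched on both strands as a pair of GAAA blocks with any 2 bases between them. 17 of the 28 list members with a promoter (60.7%) held it, against 2.85% of tested genes, 4.14% of genes called higher, 2.73% of genes called lower and 3.65% of all promoters. The stretch lies on the minus strand at chr11:320861-321110 and holds 2 matches, in capitals, the first 52 bases before the start. Genes of this list are known from responses to interferon, so the element's presence is not independent of how the list was drawn up.
IFITM3: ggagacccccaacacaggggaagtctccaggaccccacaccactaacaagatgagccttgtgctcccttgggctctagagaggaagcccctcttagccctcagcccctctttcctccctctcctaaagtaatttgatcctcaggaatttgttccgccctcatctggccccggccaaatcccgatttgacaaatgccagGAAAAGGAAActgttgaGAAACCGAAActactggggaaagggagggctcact

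**Figure D4:**
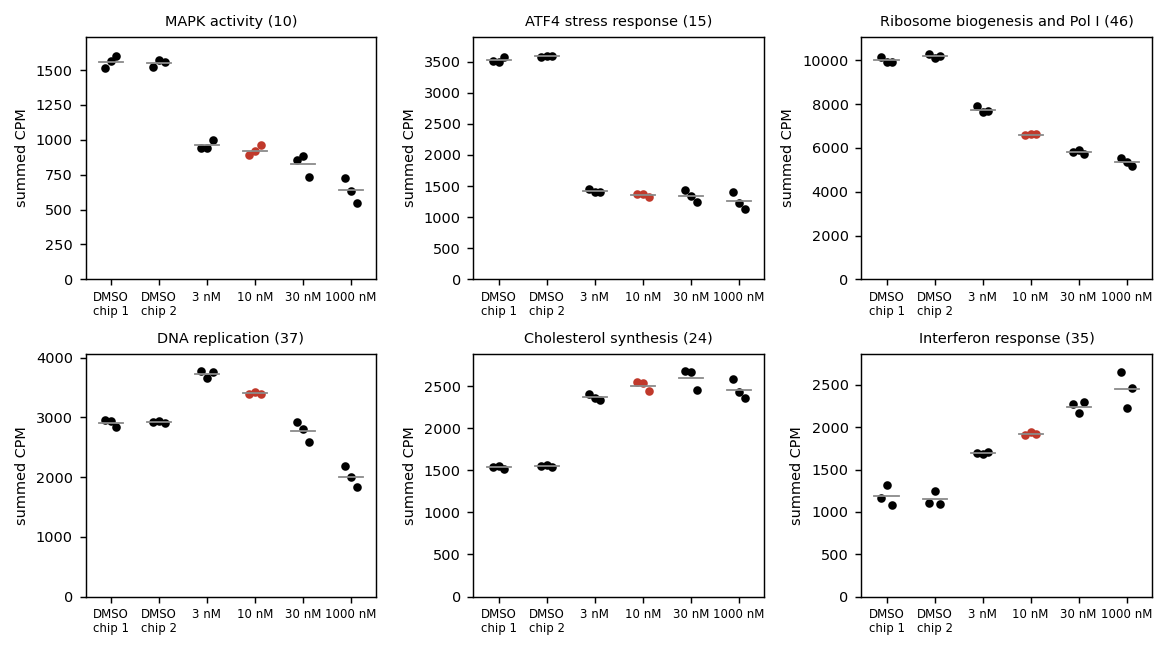
Summed CPM (y axis) of 6 gene lists (panels, number of genes in brackets) in each library (points) of DMSO chip 1, DMSO chip 2, 3, 10 (red), 30 and 1000 nM (x axis), with group means as grey bars. Sums are set mostly by the genes with the most counts. DNA replication genes at 10 nM lie at 3386 to 3421 CPM, above DMSO and, at 1000 nM, fall below it.

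Genes of secretory cells moved in opposite directions. MUC2, the main gel-forming mucin of goblet cells, lay between 131 and 155 CPM (median 149) in DMSO and at 42.8, 36.8 and 41.2 CPM at 10 nM, a log2 fold change of -1.88 (SE 0.11, adjusted p = 5.8e-19). REG4, a secreted lectin, went from 1475 CPM in DMSO to 592 CPM (-1.32, SE 0.11). The membrane mucin MUC13 rose from a median of 154 CPM to 360, 382 and 439 CPM (1.32, SE 0.11), MUC20 from under 1.1 CPM to 4.36, 4.54 and 9.10 CPM (2.82, SE 0.44), and the antibacterial enzyme LYZ from 10.5 to 41.9, 37.1 and 42.5 CPM (1.89, SE 0.20). In all, 5 of 11 tested members rose and 2 fell.

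Among absorptive cell genes, 2 of 18 rose and 5 fell, where 13.5% of all tested genes rose and 13.3% fell. VIL1, a protein of microvilli, went from a median of 57.2 CPM to 118, 103 and 112 CPM (0.96, SE 0.11) and the intestinal transcription factor CDX2 from 139 to 206, 199 and 212 CPM (0.58, SE 0.10). KLF5 (-0.60, SE 0.08), KLF4 (-0.75, SE 0.15) and HNF4G (-0.90, SE 0.16) fell. CEACAM5, the carcinoembryonic antigen, went from a median of 244 CPM to 132, 117 and 125 CPM (-0.97, SE 0.10), and CEACAM6 from 57.7 to 27.3, 27.0 and 22.4 CPM (-1.18, SE 0.14). KRT19 rose by 0.76 (SE 0.17) and KRT14 by 3.02 (SE 0.40), the latter from about 1 CPM in DMSO.

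Adhesion and junction genes rose more often than they fell. Of 24 tensin, integrin and laminin genes, 7 rose and 3 fell. LAMA5 (1.11, SE 0.12), LAMA3 (1.23, SE 0.18) and the matrix protease MMP14 (1.10, SE 0.14) rose, and the collagen receptor ITGA2 fell by 0.97 (SE 0.13). TNS4, a member of the tensin family, had the largest fall named by size. It lay between 18.4 and 25.8 CPM (median 22.4) in DMSO. At 10 nM it lay at 2.04, 1.60 and 1.82 CPM (-3.60, SE 0.27, adjusted p = 5.77e-15). Of 22 junction genes, 7 rose and 4 fell. CDH1 (E-cadherin) went from a median of 250 CPM to 375, 373 and 356 CPM (0.56, SE 0.09) and CLDN4 from 197 to 337, 332 and 317 CPM (0.72, SE 0.10), while CLDN7 fell from 342 to 202, 202 and 200 CPM (-0.77, SE 0.10). Of 12 mesenchymal genes, 3 fell (25%) and none rose, where 13.3% of all tested genes fell. CDH2, ZEB2 and TWIST1 had 0 counts in the compared libraries. TGFBI fell by 0.77 (SE 0.09). WNT targets were near the background of 26.8% called either way, with 1 of 19 higher and 3 lower (21.1%). LGR5 (-0.22) and AXIN2 (-0.09) did not pass.

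Stress and energy genes changed in parts. VEGFA, a blood vessel growth factor, fell from a median of 54.4 CPM to 17.7, 14.7 and 22.1 CPM (-1.58, SE 0.15), the hexokinase HK2 by 1.18 (SE 0.11) and the glucose carrier SLC2A1 by 0.94 (SE 0.10). NDRG1 rose from a median of 42.8 CPM to 131, 138 and 128 CPM (1.61, SE 0.12), and LDHA (0.09) and PGK1 (0.23) did not pass. In all, 4 of 27 glycolysis and hypoxia genes rose and 6 fell, where 13.5% of all tested genes rose and 13.3% fell. Endoplasmic reticulum stress genes fell in 6 of 19 members and rose in 3. XBP1 fell by 1.17 (SE 0.12), HERPUD1 by 1.15 (SE 0.12) and the sensor ERN1 by 1.78 (SE 0.23), while HSPA5 (-0.14) did not pass and CALR rose by 0.47.

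Heat shock chaperones rose in 7 of 17 members and fell in 1. HSPA1B went from a median of 21.9 CPM to 80.3, 74.2 and 59.4 CPM (1.68, SE 0.16), an amplicon that may share reads with HSPA1A, and DNAJA1 from 110 to 193, 216 and 212 CPM (0.92, SE 0.10). HSPD1 fell (-0.48). Of 16 NRF2 and AhR targets, 3 rose and 4 fell, with ALDH3A1 higher (1.24, SE 0.23) and ME1 lower (-0.83, SE 0.16). Respiratory chain subunits rose in 8 of 35 and fell in 4, where 13.5% of all tested genes rose and 13.3% fell. NDUFA1 was among the risers at 0.87 (SE 0.15). Of 8 tested metallothioneins, which are near-identical and may share reads, 3 rose and none fell, but the list median was -0.274. Their summed level lay between 394.2 and 536.1 CPM in DMSO and, overlapping it, between 368.5 and 477.9 CPM at 10 nM. Of 11 genes often used as a reference, ACTB rose from 2838 ± 94.9 to 4799 ± 363 CPM (0.76, SE 0.12), SDHA rose by 0.27 (SE 0.09), a call lost under 8 alternatives (largest adjusted p 0.119), HPRT1 fell by 0.74 (SE 0.18) and B2M fell as given above. GAPDH (-0.20, SE 0.12) did not pass in this test and did with only the compared libraries in the fit, and with 3 libraries left out (smallest adjusted p 0.0111).

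By size, the 15 largest rises and falls were taken among called genes whose libraries did not overlap and whose higher group averaged 5 CPM or more. PLA2G2A, a secreted phospholipase of the intestine, lay between 27.8 and 34.3 CPM (median 30.6) in DMSO and at 240, 214 and 235 CPM at 10 nM, a log2 fold change of 2.89 (SE 0.12, adjusted p = 2.77e-24). TNNC1, a troponin subunit, went from a median of 9.14 CPM to 65.4, 55.0 and 40.6 CPM (2.52, SE 0.22). FAM83E (2.80, SE 0.37), FAM151A (2.58, SE 0.39), SLC4A8 (2.50, SE 0.38), BCL2L15 (2.42, SE 0.37), KRT9 (2.42, SE 0.35), CACNG4 (2.40, SE 0.39) and the metallothionein MT3 (2.92, SE 0.42) rose from levels under 5 CPM in every DMSO library. For C20orf151, DMSO libraries held 0 counts and those at 10 nM 35 in all, so that it was at least 23.4-fold higher, with a floor of 3 counts over the DMSO group.

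The chemokine receptor CXCR4 lay between 18.4 and 26.5 CPM (median 24.1) in DMSO and at 2.62, 1.60 and 2.73 CPM at 10 nM (-3.32, SE 0.29), and MYEOV, a gene often amplified in tumours, went from a median of 37.2 CPM to 6.98, 4.54 and 3.03 CPM (-2.90, SE 0.32). ANKRD1, a target of YAP, changed by -3.26 (SE 0.66) and the cytokine IL33 by -3.28 (SE 0.65), with no count in 2 of the 3 libraries at 10 nM. Without the third of these libraries ANKRD1 was at -4.22, and IL33 was at -7.29 without the first, the 1 that held its counts, so neither size is well determined. HNRNPA3, HIST1H2BC and HIST1H2BF fell by over 3 on the log2 scale, and the first of these varied widely in DMSO. HNRNPA3 was at 261 and 293 CPM in the first replicate of either chip and between 110 and 154 CPM in the other DMSO libraries, and its SE was 0.78. HNRNPA3 has pseudogene copies and histone genes are near-identical, so these values are uncertain. The call of TRAPPC11, another large fall (-2.65, SE 0.85), was lost under 5 alternatives (largest adjusted p 0.115).

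**Figure D5:**
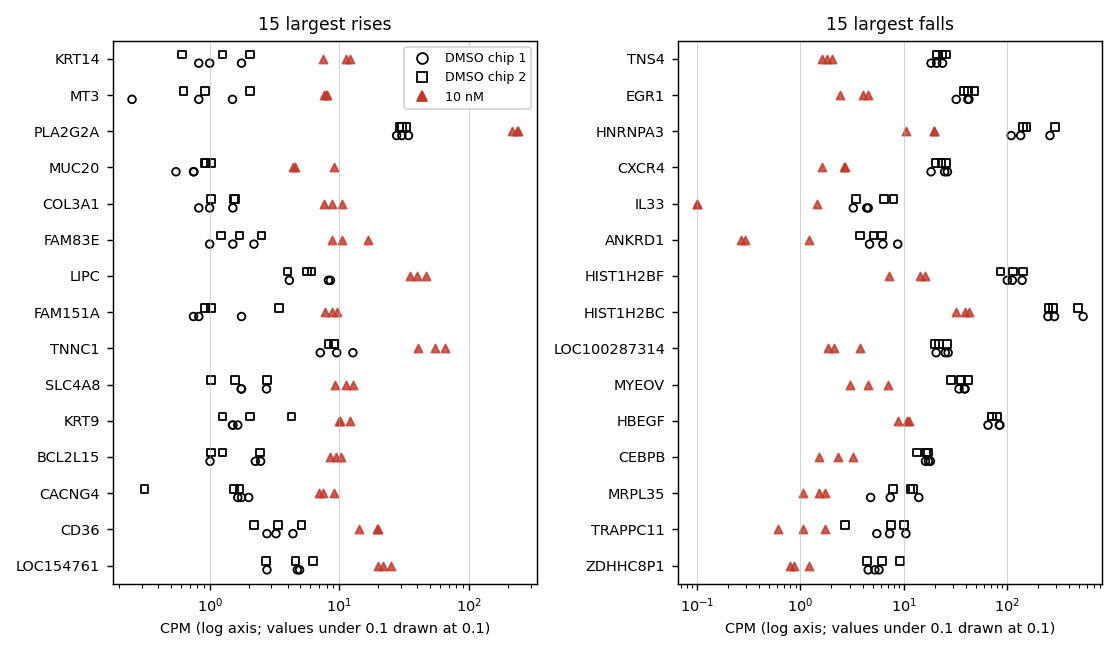
Level in each library (x axis, CPM on a log axis, with values under 0.1 drawn at 0.1) of the 15 largest rises (left) and falls (right) by log2 fold change, for DMSO chip 1 (circles), DMSO chip 2 (squares) and 10 nM (triangles). Triangles and open symbols do not overlap, which the choice of genes required, and HNRNPA3 and HIST1H2BC show wide DMSO ranges.

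Markers of other cell types were examined beside these changes. Of 10 fibroblast markers, 3 were tested. COL3A1 rose from a median of 1.27 CPM to 10.5, 8.81 and 7.58 CPM (2.82, SE 0.40) and COL1A1 from 1.81 to 9.89, 10.9 and 6.98 CPM (2.24, SE 0.31), while LUM (1.77, SE 0.69, adjusted p = 0.0511) did not pass and did under 8 alternatives. Their summed level lay between 3.27 and 4.50 CPM in DMSO and between 15.5 and 23.3 CPM at 10 nM. COL1A2, DCN, THY1, FAP and POSTN, which fibroblasts express, had 0 counts in the 9 libraries, and PDGFRA had 1 count in DMSO and 3 at 10 nM. Of the blood cell markers, LYZ rose and CD68 (-0.01) did not pass, while PTPRC, CD3D, CD3E, MS4A1 and HBB had 0 counts. The sum of LYZ and CD68 lay between 16.2 and 22.9 CPM in DMSO and between 45.4 and 52.4 CPM at 10 nM. No endothelial marker passed the filter on low counts. All libraries are labelled as LoVo, an established line, and the labels name no other cells. A part of other cells in these changes was not tested beyond these values. Of 12 colorectal epithelium markers, 4 rose and 1 fell.

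Few genes were called between 10 nM and the doses next to it. Since the chip of the treated libraries is not labelled, a chip difference between doses cannot be told apart from a dose difference. Against 3 nM, 203 genes (1.68%) were called, 113 higher (0.934%) and 90 lower (0.744%) at 10 nM. MYC was at 250 CPM at 3 nM and 162 CPM at 10 nM (-0.63), and ETV4 at 39.5 and 21.3 CPM (-0.89). BMF (0.94), BCL2L11 (0.72), BCL2L15 (1.23) and SLC4A8 (1.14) were higher at 10 nM, and TNS4 (-1.30), C2CD4A (-1.003), TRABD2A (-1.20), TIMM50 (-1.20) and LIPG (-0.91) lower. Calls of this step were lost on leaving out each of 3 single libraries for BCL2L15 and each of 4 for SLC4A8 (largest adjusted p 0.13 and 0.162), under 8 alternatives for TNS4 and under 7 each for TIMM50 and TRABD2A (0.158, 0.27 and 0.241), DESeq2 or limma voom among them for TNS4 and TIMM50 and the replicate block for TRABD2A. Those of BMF, BCL2L11, C2CD4A, LIPG, MYC and ETV4 held under every alternative run. LIPG, endothelial lipase, lay at 81.4 CPM at 3 nM, within the DMSO range of 69.0 to 83.1 CPM, and at 43.9, 43.5 and 42.5 CPM at 10 nM. HPRT1, whose call was lost without 3 nM replicate 1 (adjusted p 0.0599), showed the same order, with 36.3 CPM at 3 nM against a DMSO median of 33.9 CPM and 17.5, 24.3 and 18.8 CPM at 10 nM. No list had more than 4 members called lower or 3 called higher in this step. Among ribosome biogenesis genes, 4 of 46 were lower at 10 nM than at 3 nM, and of purine, pyrimidine and polyamine enzymes 4 of 24.

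From 10 to 30 nM, 34 genes (0.281%) were called, 12 higher (0.0992%) and 22 lower (0.182%) at 30 nM. DUSP6 (-1.24), ETV4 (-1.18), MUC2 (-0.88), LIPG (-0.89), CEACAM6 (-0.70), MYC (-0.62) and REG4 (-0.60) were lower, and CDKN2B (0.63), BMF (0.58), TSC22D1 (0.60), SEPP1 (0.93) and MUC20 (1.11) higher. TSC22D1, a leucine zipper protein, was not called at 10 nM against DMSO, with overlapping groups, and went from 76.1 CPM at 10 nM to 116 CPM at 30 nM. Calls of this step were lost under 11 alternatives for BMF, 7 for CEACAM6, 6 for MUC20, 2 each for SEPP1 and TSC22D1 and 1 for CDKN2B (largest adjusted p 0.298, 0.215, 0.327, 0.0699, 0.0788 and 0.073). In either step the count of calls moved by more than 1.5 times when most of the compared libraries were left out one at a time, down to 51 for 3 nM and 7 for 30 nM.

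Between 10 and 1000 nM, 1782 genes (14.7%) were called, 784 higher (6.48%) and 998 lower (8.25%) at 1000 nM. The count was 831 with only the compared libraries in the fit and 1071 without 10 nM replicate 1. It was 2149 without 0.1 nM replicate 2, 1 nM replicate 1 and 1000 nM replicate 1. DUSP6 went from 13.5 to 1.89 CPM (-2.82), MYC from 162 to 55.8 CPM (-1.54), EPHA2 from 231 to 91.8 CPM (-1.33) and FOSL1 from 24.9 to 10.0 CPM (-1.31). CCND1, not called at 10 nM, went from 289 to 185 CPM (-0.65). BMF went from 31.6 to 70.8 CPM (1.17), CDKN2B from 72.8 to 178 CPM (1.29) and MUC20 reached 20.7 CPM (1.79). NR2E3, a nuclear receptor, was at 5.80 CPM at 10 nM and 0.512 CPM at 1000 nM (-3.36), and CYP2J2, which oxidises fatty acids, at 47.3 and 10.2 CPM (-2.22). Other genes were not called between these doses: HBEGF was at 10.3 and 9.57 CPM, DDIT4 at 173 and 175 CPM, INSIG1 at 131 and 141 CPM and PLA2G2A at 230 and 196 CPM. A missed threshold does not show that such levels are equal.

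Some genes lay at 10 nM outside their levels in both DMSO and 1000 nM. Those named here were picked by the size of both changes among the genes called in opposite directions in these comparisons, which share the libraries at 10 nM, so their values are a description. PI3, an elastase inhibitor, lay between 3.45 and 6.44 CPM in DMSO, at 9.89, 12.3 and 9.10 CPM at 10 nM and at a mean of 5.16 CPM at 1000 nM. ATP12A, a proton pump, lay under 2.2 CPM in DMSO, at 5.24, 7.21 and 5.76 CPM at 10 nM and at 2.72 CPM at 1000 nM, and KRT75 at a DMSO median of 7.91 CPM, at 16.3, 16.3 and 19.1 CPM and at 10.0 CPM. In the other direction, TSC22D3 (GILZ), a glucocorticoid-induced gene, lay between 30.1 and 36.2 CPM in DMSO, at 10.5, 13.6 and 19.1 CPM at 10 nM and at 29.3 CPM at 1000 nM. ARL14, a small GTPase, lay at a DMSO median of 8.95 CPM, at 3.49, 2.14 and 1.21 CPM and at 6.41 CPM. The calls against DMSO of CNTFR, YOD1, LOC100505633 and BACH1, which the same choice named, were lost under 3 to 13 alternatives (largest adjusted p 0.244, 0.0765, 0.146 and 0.203), and those between 1000 and 10 nM of PI3, ATP12A and KRT75 under 1, 3 and 3 (0.0564, 0.095 and 0.0772).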

How the data were processed

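RNA of LoVo cells was measured by AmpliSeq, an amplicon panel sequenced on Ion Torrent, in 36 libraries of 12 groups. The authors deposited whole read counts per gene. The labels' protocols give 10 ng of RNA per library and 18 samples per pool, and the submitters' processing notes name hg19. The counter is not given in the sources used here. Amplicon reads carry no molecular identifiers, so floors cover counting error only.

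Counts of 20802 genes were fitted with edgeR 4.0.16 (R 4.3.3; quasi-likelihood, robust, TMM, 12 group means, all 36 libraries), after its filter on low counts left 12102. The 10 nM group was tested against each DMSO chip, the larger p was kept and adjusted by Benjamini-Hochberg, and a gene was called below 0.05 with 1 sign against both. Fold changes are against the mean of both DMSO groups, and the SE beside them is the larger of the SEs against each single DMSO chip. Steps from 10 nM to 3, 30 and 1000 nM came from the same model, which holds no chip term for the treated libraries. Replicate numbers paired the DMSO libraries across the chips (correlations of deviations from the group mean 0.287, 0.141 and 0.257), and those at 10 nM did not follow DMSO numbers. Named genes were the 15 largest changes each way, all MAPK activity genes, up to 4 called members of each list by adjusted p, 5 genes each way of each step, and 5 each way whose 10 nM level lay outside DMSO and 1000 nM. Some genes that this rule names are not reported here. All lists and members were chosen with earlier results of these data known, and further members were named after their values were seen. Counts were also simulated for 10 nM against DMSO (11953 genes). A log2 change of 0.5 was recovered for 12% of genes, of 1 for 84%, of 2 for 98% and of 3 for 96%. In that comparison 2 unchanged genes were called. For 10 nM against 3 nM these shares were 24%, 90%, 100% and 96%, and 9 unchanged genes were called. At most 50 genes per size were changed there, far fewer than were called in the data against DMSO. Counts were drawn from the fitted model without the DMSO pairing, so these rates need not hold for the data. DESeq2 1.42.0, limma voom 3.58.1, other scalings, filters and sample choices were alternatives.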

Additional observations from a re-analysis of the deposited data

How the results depend on the processing

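Against DMSO, 3249 genes were called, and 2508 to 2819 when each library was left out in turn. Counts were 3241 with DESeq2-type size factors, 3133 with DESeq2, 3142 with limma voom, 3156 without a filter on low counts and 4039 with only the compared libraries, and 4964 against the mean of both DMSO groups. Leaving out 3 libraries (0.1 nM replicate 2, 1 nM replicate 1 and 1000 nM replicate 1), of which only the last enters a comparison here, gave 3782. The smaller steps were less stable. For 10 against 3 nM (203 calls), there were 483 without the filter, 682 with only the compared libraries and 675 without the 3 libraries, and leaving out single libraries gave 51 to 140. The share called higher there went from 55.7% to 35.2% without the filter. For 30 against 10 nM (34 calls) the same settings gave 53, 16 and 108, and single libraries 7 to 24. For 1000 against 10 nM (1782 calls) only the compared libraries gave 831, and single libraries 1071 to 1726. The cause was not tested.

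Replicate numbers did not pair 10 nM with DMSO. With the replicate block, 3210 genes were called against DMSO, 206 against 3 nM, 30 for 30 nM and 1754 for 1000 nM. No gene called against DMSO changed sign. EPHA4, not called at -0.04, was at 0.0136 with limma voom, 0.0624 against DMSO chip 1 alone, and -0.207 to 0.138 without single libraries, turning sign without 10 nM replicate 3 (0.138), DMSO chip 1 replicate 3 (0.00897) and DMSO chip 2 replicate 3 (0.138). BRAF, not called at -0.01, was at 0.0488 against DMSO chip 1 alone and -0.119 to 0.0859 without single libraries, turning sign without 10 nM replicate 1 (0.0859) and DMSO chip 1 replicate 1 (0.00475). Depth and 3 libraries per group limit what small changes can be called.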
